A study of Mus musculus with 5 samples.

Results

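Kidney miRNAs of mice at 48 h after renal ischemia-reperfusion injury (IRI) were compared with those of sham-operated mice. This comparison used 2 of the 5 arrays of the series, namely the array of the 48 h group and the array of the sham group, and took in all 1247 miRNAs printed on them. Both groups were male C57B/6 mice with no other treatment named, and their age was not given in the sources used here. In the 48 h group the vessels of both kidneys were clamped for 30 min of warm ischemia before reperfusion, and the sham group had the same surgery without the clamp. Each time point had 8 mice by the methods, which do not say whether their RNA was pooled, and 1 array per group was deposited. No spread between animals was therefore measured, and no test between the groups was possible. The error given with each value is that of the scanner software, which covers the spots of 1 array only.

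MicroRNAs are short RNAs of the Argonaute complex that pair with messenger RNAs and lower their stability or translation. Pairing rests mainly on the seed, bases 2 to 8 from the 5′ end of the mature strand, so miRNAs with one seed can share targets. The ischemic kidney loses tubule cells and recruits leukocytes, and the surviving epithelium divides while interstitial fibroblasts become active. miR-21 is known as an injury- and fibrosis-associated miRNA of the kidney, miR-210 as a target of hypoxia-inducible factor, and miR-192, miR-194, and the miR-200 family as miRNAs of kidney epithelium. The tissue was bulk kidney, in which fewer cells of a type and less RNA per cell cannot be told apart.

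The mature sequences of the miRNAs on which the comparison turned are given 5′ to 3′ with the seed in capitals, from RefSeq (mouse build GRCm38.p6). The first set holds miRNAs with a higher signal at 48 h, shown because they had the largest ratios or belong to the clusters described later.

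miR-21a-5p: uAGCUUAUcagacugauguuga
miR-494-3p: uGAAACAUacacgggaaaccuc
miR-18a-5p: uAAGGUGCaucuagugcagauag
miR-188-5p: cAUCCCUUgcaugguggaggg
miR-2861: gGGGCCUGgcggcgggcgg
miR-199a-5p: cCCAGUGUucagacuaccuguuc
miR-29a-3p: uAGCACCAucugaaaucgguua
miR-29b-3p: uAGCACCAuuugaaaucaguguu
miR-29c-3p: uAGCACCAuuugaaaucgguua

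The miR-21a strand lies at chr11:86584120-86584141 on the minus strand, within the annotated span of Vmp1. The miR-494 strand lies at chr12:109715367-109715388 and the miR-18a strand at chr14:115043867-115043889, both on the plus strand. The miR-188 strand lies at chrX:7248031-7248051 within Clcn5. The 3 miR-29 strands carry the seed AGCACCA. The second set holds miRNAs with a lower signal at 48 h. It also holds miR-132-3p, which has the seed of miR-212-3p and was detected, dimly, at 48 h and not in sham.

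miR-210-3p: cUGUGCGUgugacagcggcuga
miR-760-3p: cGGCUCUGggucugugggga
miR-3099-3p: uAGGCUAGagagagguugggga
miR-202-3p: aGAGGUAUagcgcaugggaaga
miR-181a-5p: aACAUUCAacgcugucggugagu
miR-181b-5p: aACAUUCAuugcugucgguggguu
miR-212-3p: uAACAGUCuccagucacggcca
miR-132-3p: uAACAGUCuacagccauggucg

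miR-210-3p lies at chr7:141221407-141221428, miR-202-3p at chr7:139957695-139957716, and miR-760-3p at chr3:122293615-122293634, all on the minus strand. miR-3099-3p lies at chr7:6803638-6803659 on the plus strand, within the span of Usp29. miR-212-3p at chr11:75173443-75173464 and miR-132-3p at chr11:75173723-75173744 come from neighboring hairpins on the plus strand.

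A miRNA was read by 1 to 4 probes. Its signal is the sum over its own probes with a signal above 3 times the scanner error, and a miRNA with at least 1 such probe was called detected. By this rule 219 miRNAs were detected in sham (17.6%) and 197 at 48 h (15.8%), with 188 on both arrays. The lowest detected signal was 1.99 in sham and 2.77 at 48 h, and no spot was saturated. The 4 spike-ins of known input, dmr_285, dmr_31a, dmr_6, and dmr_3, were brighter on the 48 h array, by 0.63 to 1.28 on the log2 scale and by 1.04 (2.06-fold) in their geometric mean. The sham RNA was on slide 1 and the 48 h RNA on slide 2, in a scan of its own, so that slide, scan, and group cannot be told apart. As a check of the tissue, 7 miRNAs typical of muscle, liver, brain, and endocrine cells were detected on neither array, whereas the kidney miR-192-5p and all 5 members of the miR-200 family were detected on both.

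The summed signal of all detected miRNAs was 65163 ± 1685 in sham and 75265 ± 2075 at 48 h, a difference of 10102. The log2 ratio was 0.21 ± 0.05 (scanner error) with no scaling and −0.83 when the arrays were scaled by the spike-ins. The sign of the difference in total miRNA signal thus depended on the scaling. The typical miRNA went the other way from the unscaled total. Over the 188 miRNAs found on both arrays, the median log2 ratio was −0.22 unscaled, with quartiles of −0.52 and 0.25, and −1.26 after spike-in scaling. Unscaled, 76 of the 188 were higher at 48 h (40.4%) and 112 lower (59.6%). After spike-in scaling 14 were higher (7.45%) and 174 lower (92.6%). The 14 miRNAs higher after spike-in scaling were higher on all scales used, 94 were lower on all of them, and the direction of the other 80 depended on the scale. In the text that follows, a centred ratio is a log2 ratio minus the median ratio, so that it says how a miRNA stood relative to the median miRNA, and a miRNA is called higher or lower when its centred ratio was at least 1 in size (2-fold).

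**Figure D1:**
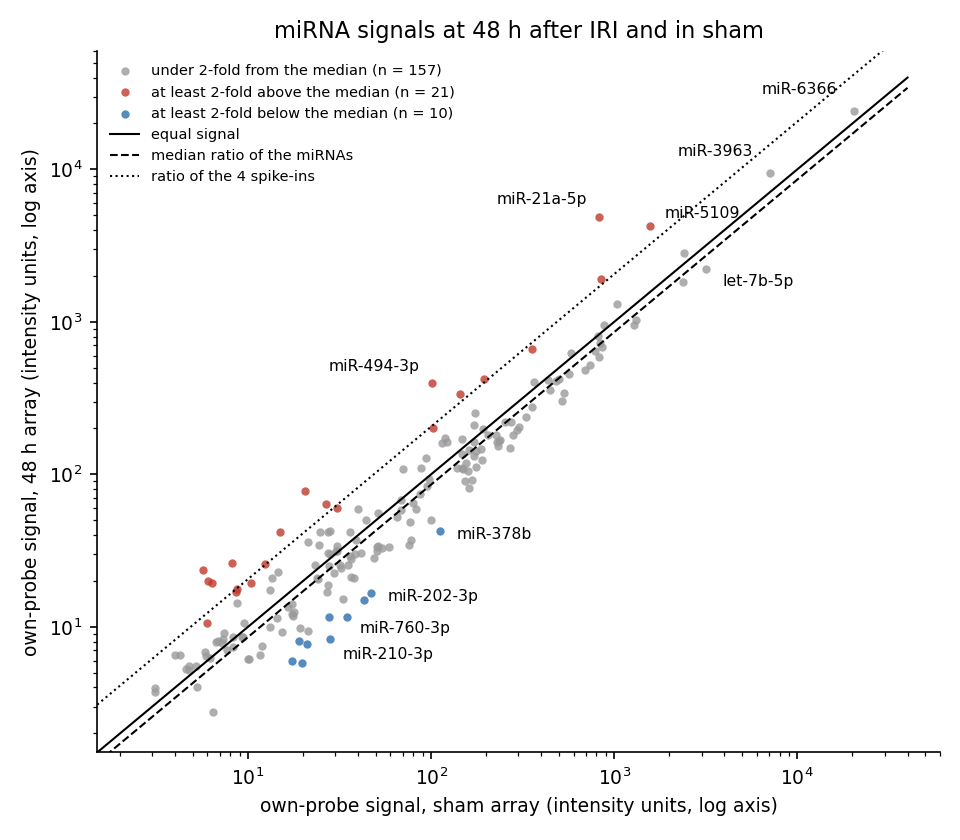
Own-probe signal of the 188 miRNAs detected on both arrays, sham on the x axis and 48 h on the y axis, both log axes in intensity units, 1 point per miRNA. The 21 miRNAs at least 2-fold above the median ratio (red) include miR-21a-5p, the 10 at least 2-fold below it (blue) all had sham signals no higher than the 112 of miR-378b, and the dotted line marks the 2.06-fold ratio of the spike-ins.

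A few abundant miRNAs made up the increase in total signal. Over the miRNAs detected on either array, 85 increased by 16812 in sum and 143 decreased by 6710 in sum. The signal of miR-21a-5p was 831 in sham and 4898 at 48 h, and its increase of 4067 was 24.2% of all increases. The next were miR-6366, from 20386 to 24231, miR-5109, from 1569 to 4235, miR-3963, from 7118 to 9460.2, and miR-6243, from 844 to 1911. These 5 miRNAs held 83.2% of the increases. Except for miR-21a-5p they are miRNAs with late registry numbers, whose functions are little described. The largest decreases belonged to families that are abundant in most tissues. let-7b-5p went from 3162 to 2218, let-7c-5p from 2368 to 1825, miR-30a-5p from 1279 to 955, let-7a-5p from 1311 to 1032, and the endothelial miR-126-3p from 827 to 586. These 5 made up 34.7% of the decreases. The miRNAs numbered below 1000, with the let-7 family, summed to 29204 in sham and 28325 at 48 h, a log2 ratio of −0.04 (−0.28 without miR-21a-5p). The miRNAs numbered from 1000 up summed to 35959 and 46940.3, a log2 ratio of 0.38, and they held 55.2% of the sham signal and 62.4% of the 48 h signal.

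**Figure D2:**
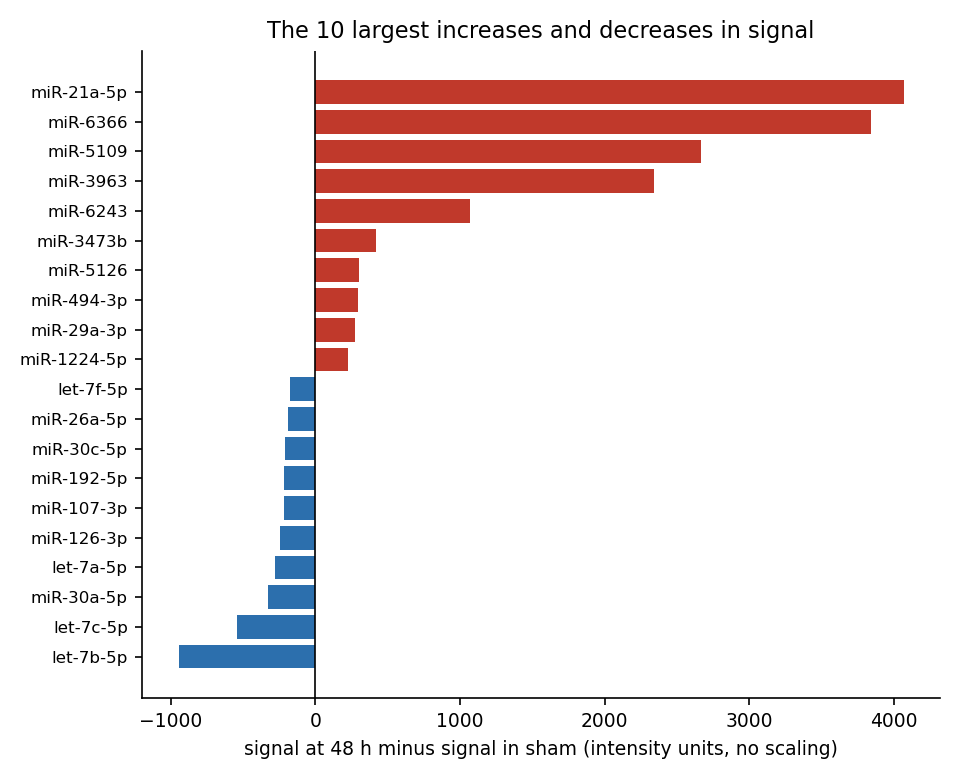
Difference in own-probe signal, 48 h minus sham, in intensity units without scaling, for the 10 largest increases (red) and the 10 largest decreases (blue), 1 bar per miRNA. miR-21a-5p and miR-6366 have the longest bars to the right (4067 and 3845), and let-7b-5p the longest to the left (944 lower at 48 h).

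Relative to the median miRNA, 21 of the 188 were at least 2-fold higher (11.2%) and 10 at least 2-fold lower (5.32%). Unscaled, 15 (7.98%) were at least 2-fold higher and 16 (8.51%) lower, and after spike-in scaling 2 (1.06%) were higher and 116 (61.7%) lower. miR-21a-5p had the highest ratio. Its centred ratio was 2.78 ± 0.18 (scanner error), a 6.88-fold difference, and it remained 2.87-fold higher after spike-in scaling. Both of its probes were detected on both arrays. miR-494-3p, which lies in the imprinted Dlk1-Dio3 region and is known from ischemic kidney, had signals of 101.1 and 396 and a centred ratio of 2.19 ± 0.16. miR-18a-5p, of the miR-17-92 cluster linked to cell proliferation, had 6.34 in sham and 19.4 at 48 h, with a centred ratio of 1.83 ± 0.36. miR-188-5p, read by 4 probes, had 14.9 and 41.7, with a centred ratio of 1.70 ± 0.17. The last 3 miRNAs also stayed above 0 after spike-in scaling, at 0.93, 0.57, and 0.44.

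The other miRNAs among the 12 highest had late registry numbers. miR-5109 and miR-6243 were the abundant ones, with centred ratios of 1.66 ± 0.16 and 1.40 ± 0.16. miR-3960 had signals of 143 and 335 with a centred ratio of 1.45, and miR-2861, which is grouped with it as an osteoblast miRNA, had 26.6 and 63.6 with 1.48. The 4 others were dim in sham. miR-5115 had 5.66 and 23.6 (centred ratio 2.28), miR-3096b-3p had 20.3 and 78.0 (2.16), miR-1187 had 6.05 and 19.8 (1.94), and miR-1196-5p had 8.13 and 26.4 (1.92). miR-5115, miR-3096b-3p, and miR-1187 each had 1 detected probe in sham and 2 at 48 h, and with the shared probe alone their centred ratios were 1.80, 1.90, and 1.20. All 21 miRNAs called higher stayed at least 2-fold higher with only the probes detected on both arrays. The remaining 9 of the 21 had centred ratios of 1.33 for miR-1224-5p, 1.29 for miR-6538, 1.24 for miR-1949, 1.21 for miR-574-5p, 1.19 for miR-3082-5p, 1.18 for miR-466i-5p, 1.11 for miR-199a-5p, 1.11 for miR-5126, and 1.05 for miR-466i-3p. After spike-in scaling the last 7 of these, from miR-1949 on, were below 0. Just under the 2-fold line stood miR-669p-3p at 0.98, the myeloid miR-223-3p at 0.97, and the inflammation-induced miR-155-5p at 0.95.

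Of the 10 miRNAs called lower, 7 had fewer detected probes at 48 h than in sham. miR-210-3p had signals of 28.0 ± 2.8 in sham and 8.37 ± 1.84 at 48 h, a centred ratio of −1.52 ± 0.35 (2.86-fold lower). It had 2 detected probes in sham and 1 at 48 h, and with the shared probe alone the centred ratio was −1.20. The miRNAs miR-760-3p, miR-3099-3p, and miR-202-3p had the same number of probes on both arrays. miR-760-3p, read by 4 probes, had 34.8 and 11.6, with a centred ratio of −1.36 ± 0.23. miR-3099-3p had 43.0 and 15.0, with −1.30 ± 0.27, and miR-202-3p, best known from the gonads, had 47.0 and 16.7, with −1.27 ± 0.25. miR-378b, a relative of the metabolic miR-378a, was the brightest of the 10, at 112 and 42.7, with a centred ratio of −1.17 (−1.02 with the shared probe). These 5 miRNAs stayed at least 2-fold lower with only the probes detected on both arrays.

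For the other 5 the 2-fold call was lost with the shared probe. Each had lost 1 of 2 probes at 48 h. The centred ratio of miR-1906 went from −1.53 to −0.42, that of miR-378a-5p from −1.32 to −0.74, that of miR-181b-5p from −1.22 to −0.69, that of miR-30e-3p from −1.03 to −0.77, and that of miR-324-5p from −1.01 to −0.66. All 5 stayed below 0. Over all 188 miRNAs, 20 had fewer detected probes at 48 h than in sham and 3 had more. Just inside and outside the 2-fold line stood miR-324-5p, then miR-30b-3p at −0.99 (−0.17 with the shared probe), miR-181a-5p at −0.96 (−0.62 with the shared probe), and miR-212-3p at −0.93.

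**Figure D3:**
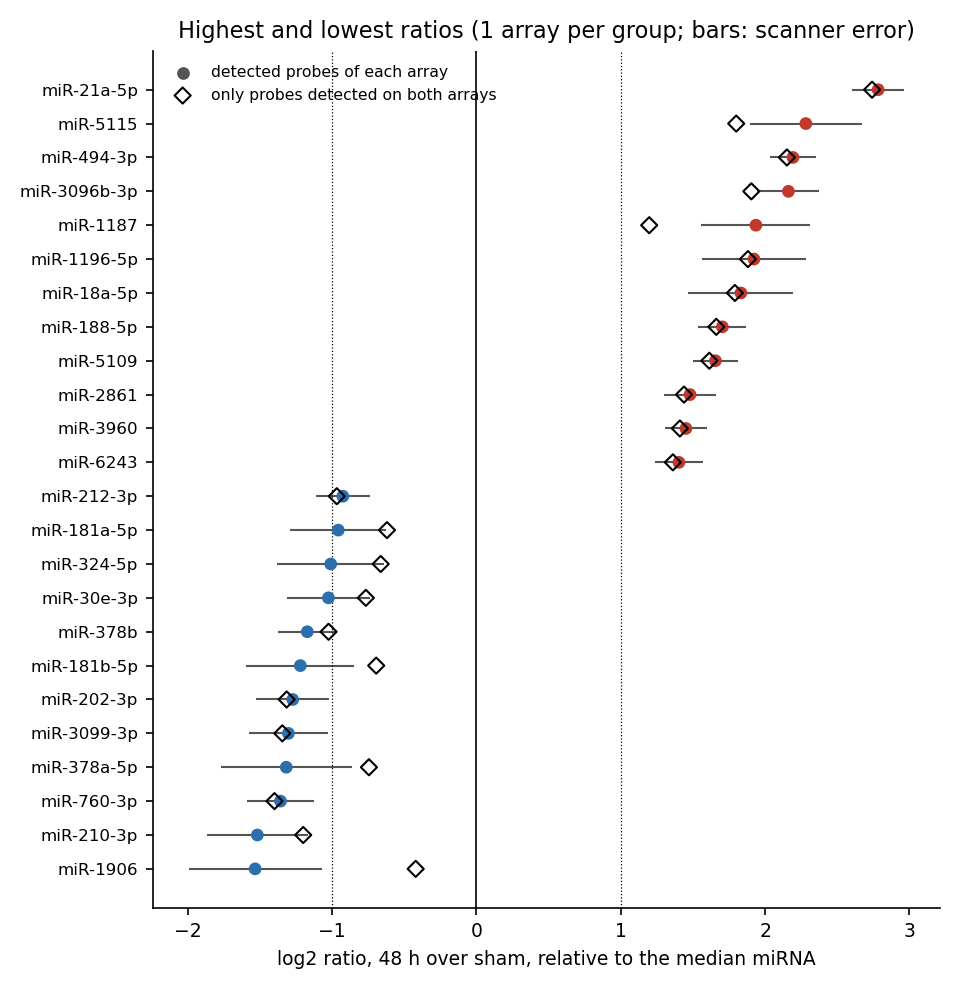
Centred log2 ratio, 48 h over sham, of the 12 highest and the 12 lowest miRNAs whose ratio was beyond 2 scanner errors, as filled points with the scanner error as bars. Open diamonds use only probes detected on both arrays, dotted lines mark 2-fold, and the diamonds of miR-1906 (−0.42), miR-378a-5p, and miR-181b-5p lie well inside the line whereas miR-21a-5p does not move across it.

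Where several probes of a miRNA were detected on both arrays, they mostly gave similar ratios. Of the 188 miRNAs, 127 had at least 2 such probes. The spread from the lowest to the highest probe ratio had a median of 0.11 on the log2 scale, a 90th percentile of 0.28, and a maximum of 1.25. All 16 called miRNAs with at least 2 such probes had every probe beyond 2-fold on the same side. The other 15 called miRNAs, 8 higher and 7 lower, had only 1 probe detected on both arrays. Of these 15, 10 had unequal numbers of detected probes, 2 on one array and 1 on the other.

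The stromal miR-199a strands and miR-214-3p stood above the median miRNA together. Each has a locus within the span of Dnm3os, but the miR-199a strands have 2 loci, which the array cannot tell apart. miR-199a-5p had signals of 10.4 and 19.3, with a centred ratio of 1.11 ± 0.29. miR-199a-3p, the other arm of the hairpin, had 94.2 and 128, with 0.66 ± 0.17, and miR-214-3p had 13.2 and 17.4, with 0.62 ± 0.28. All 3 were above 0 unscaled and below 0 after spike-in scaling, at −0.15, −0.60, and −0.64. miR-199b-5p, which was not in the list, had 38.9 and 37.3, with a centred ratio of 0.16 ± 0.21. Of the smooth muscle members of the list, miR-143-3p had 41.5 and 30.6 (centred ratio −0.22 ± 0.19). miR-145a-5p, at 4.27 in sham, was not detected at 48 h, where its probe sum was 5.34, so no decrease was shown. Over the 5 stromal miRNAs on the array the summed signal was 164 and 195.

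Leukocyte miRNAs were dim, and 3 of 7 were detected on both arrays. miR-223-3p of neutrophils and monocytes had 24.8 and 41.7 with a centred ratio of 0.97 ± 0.22, miR-155-5p had 8.66 and 14.3 with 0.95 ± 0.33, and the pan-leukocyte miR-142-3p had 4.74 and 5.17 with 0.35 ± 0.62. The median of the 3 was 0.95 centred, and all 3 were below 0 after spike-in scaling, where the median was −0.32. miR-146a-5p, an inhibitor of NF-kB signaling, had 9.63 in sham and was not detected at 48 h, and miR-142-5p, miR-146b-5p, and miR-150-5p were detected on neither array. The list summed to 47.8 in sham and 61.2 at 48 h. Among red cell miRNAs, miR-451a had 159 and 105 (centred ratio −0.38 ± 0.15), and the 3 others on the array were detected on neither. The part of blood and infiltrating cells in the ratios of other miRNAs was not tested.

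The miR-29 family, known to repress collagen genes, stood above the median miRNA in all 4 members detected on both arrays, with a median centred ratio of 0.52 (−0.74 after spike-in scaling) against 0 for all 188. miR-29a-3p had signals of 1042 and 1319 with a centred ratio of 0.56 ± 0.18, miR-29b-3p had 115 and 159.7 with 0.70 ± 0.19, and miR-29c-3p had 365 and 401 with 0.36 ± 0.15. None of the 4 reached 2-fold. The miR-17-92 cluster and its paralogs had a median of 0.39 over 8 members (−0.88 after spike-in scaling), of which 6 were above the median miRNA. Besides miR-18a-5p, miR-20a-5p had 174 and 252 with 0.75 ± 0.17, and miR-92a-3p had 123 and 162 with 0.62 ± 0.19. miR-106b-5p of the paralogous cluster stood at −0.26 ± 0.19.

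Epithelial miRNAs lay close to the median miRNA. The 5 members of the miR-200 family, which hold the epithelial state by repressing Zeb1 and Zeb2, had centred ratios from −0.18 to −0.004, none beyond 2 scanner errors. The brightest of them was miR-429-3p, with 482 in sham and 411 at 48 h. Among tubule miRNAs, 6 of 9 were detected on both arrays with a median centred ratio of −0.20. miR-192-5p had 738 and 523 with −0.27 ± 0.17, and miR-194-5p, from the same clusters, had 148 and 108 with −0.23 ± 0.17. The let-7 family, inhibitors of growth programs, had a median of −0.12 over 9 of 9 members, from −0.32 for miR-98-5p to 0.34 for let-7i-5p. These medians were negative on every scale, at −1.39 for the miR-200 and let-7 families after spike-in scaling.

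The miR-30 family, abundant in the nephron, had 7 listed strands detected on both arrays. The list joined the 5p strands with miR-30a-3p and miR-30e-3p, whose seed UUUCAGU differs from the GUAAACA of miR-30a-5p. It left out miR-30b-3p and miR-30c-2-3p, also detected on both arrays. The median centred ratio of the 7 was −0.42 (−0.64 unscaled, −1.68 after spike-in scaling). Of the 7, 4 were below the median miRNA by over 2 scanner errors, against 36 of all 188 (19.1%). They were miR-30d-5p, miR-30e-5p, and both listed 3p strands. miR-30d-5p had 154 and 91.0 with −0.53 ± 0.15, miR-30e-5p had 282 and 181 with −0.42 ± 0.17, and miR-30b-5p alone was above the median, at 0.17 ± 0.18. miR-26a-5p and miR-26b-5p, which share a seed, had −0.41 ± 0.15 and −0.43 ± 0.15. In the miR-181 family, regulators of lymphocyte development, miR-181a-5p had 21.3 and 9.39 and miR-181b-5p had 21.0 and 7.73. Both had 2 detected probes in sham and 1 at 48 h. With the shared probe alone their centred ratios were −0.62 ± 0.34 and −0.69 ± 0.39, within 2 scanner errors. miR-181c-5p was detected in sham and not at 48 h. The miR-378 family, whose miR-378a lies in the gene of a mitochondrial coactivator, was listed after these data were seen. All 4 of its detected members were below the median by over 2 scanner errors, with a median of −0.98. With the shared probe alone, miR-378a-5p was at −0.74 ± 0.47, within 2 scanner errors. miR-378a-3p had 160.2 and 81.4 and miR-378d had 100.2 and 49.9, with the same probes on both arrays and centred ratios of −0.75 ± 0.15 and −0.78 ± 0.17.

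miR-107-3p and miR-103-3p share the seed GCAGCAU and are encoded in introns of pantothenate kinase genes. Their sequences, shown because they differ in 1 base near the 3′ end, were as follows.

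miR-107-3p: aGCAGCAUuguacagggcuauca
miR-103-3p: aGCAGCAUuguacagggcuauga

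miR-107-3p had 518 in sham and 301 at 48 h with a centred ratio of −0.56 ± 0.15, and miR-103-3p had 226 and 181 with −0.10 ± 0.17. Both ratios are uncertain in that the sequences are nearly identical, and cross-hybridization between them was not tested.

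The remaining groups were near the median miRNA. The group of miR-15, miR-16, miR-103, and miR-107 had a median centred ratio of −0.15 over 8 members, and the group of miR-10, miR-99, miR-100, and miR-125 had −0.09 over 7. Of the endothelial miRNAs, miR-126-3p stood at −0.27 ± 0.15 and miR-218-5p at −0.50 ± 0.35 (0.06 with the shared probe), and miR-126-5p was detected in sham and not at 48 h. The p53 target miR-34a-5p had 234 and 167 with −0.27 ± 0.18.

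**Figure D4:**
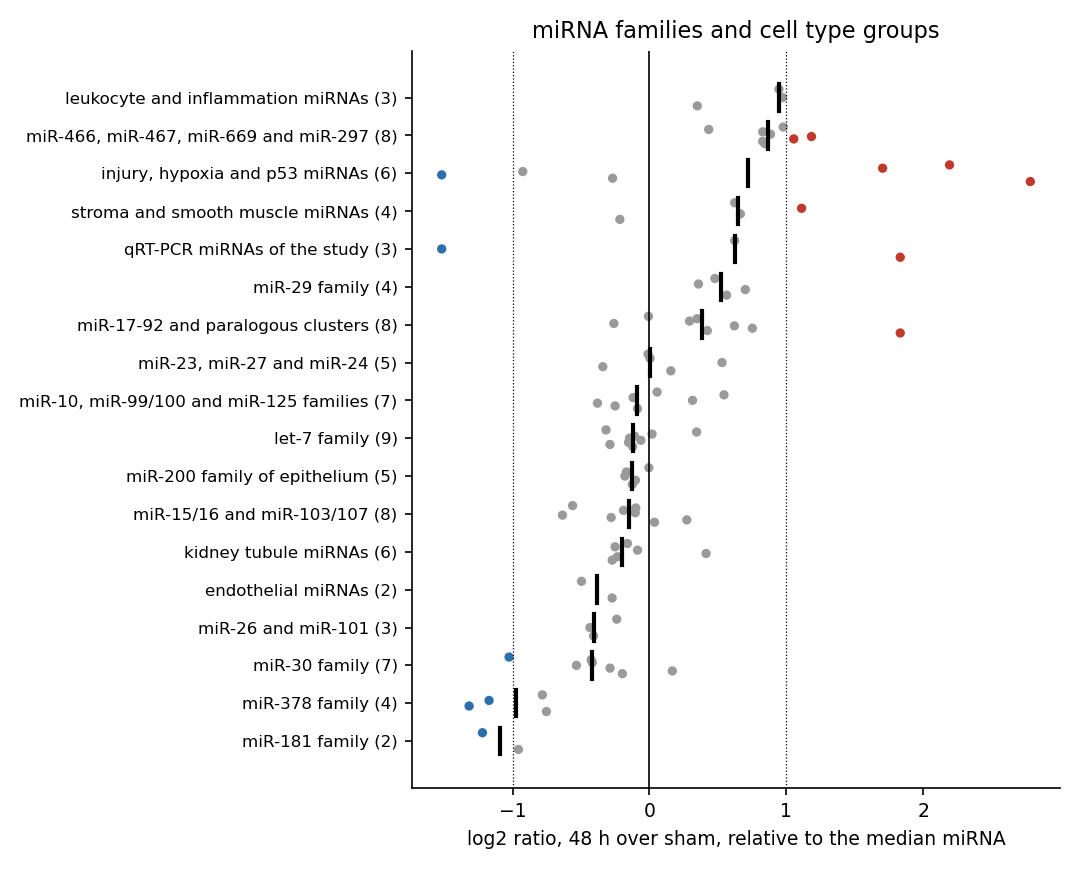
Centred log2 ratios, 48 h over sham, of the members of each family or cell type group detected on both arrays (numbers in parentheses), 1 point per miRNA, with the group median as a black bar and dotted lines at 2-fold. The miR-200 points crowd just left of 0, and the miR-29 points lie from 0.36 to 0.70. The miR-378 and miR-181 medians lie near −1. With the shared probe alone, not drawn, miR-181a-5p and miR-181b-5p stood at −0.62 and −0.69. After spike-in scaling every group median lies below 0.

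Repeat-like sequences were also described. The members of the miR-466, miR-467, miR-669, and miR-297 families, which come from repeat-rich loci and were listed after these data were seen, are rich in alternating U-G or A-C letters. Of 61 on the array, 8 were detected on both arrays, and all 8 were above the median miRNA with a median centred ratio of 0.86 (−0.40 after spike-in scaling). Their repeats are alike and cross-hybridization between them was not tested, so the 8 may not be separate measurements. At 12 h all 8 had higher centred ratios than at 48 h, from 1.90 for miR-669p-3p to 3.89 for miR-466f-3p. Among the miRNAs with a RefSeq sequence, 152 of the 188 detected on both arrays, the letters UGUGUG occurred in 5, against 19 of 1017 sequences (1.87%) on the whole array. Only the mature strand was searched, since the miRNA is single-stranded. Sequences of 3 carriers and of an A-C rich miR-466 strand show the repeat, with the seed in capitals.

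miR-1187: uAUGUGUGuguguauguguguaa
miR-574-5p: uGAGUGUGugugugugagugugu
miR-3082-5p: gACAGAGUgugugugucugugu
miR-466i-3p: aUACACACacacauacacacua

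miR-574-5p had signals of 30.4 and 60.3 with a centred ratio of 1.21 ± 0.18, and miR-3082-5p had 8.65 and 16.9 with 1.19 ± 0.32. The other carriers were miR-1187, described before, miR-669n at 0.43 ± 0.62, and let-7b-5p at −0.29 ± 0.17. The motif was chosen after the ratios were seen, and 3 of its 5 carriers were already among the miRNAs called higher. Among miRNAs with a sequence, base composition had almost no relation to the direction of the ratios. The median GC content was 50% in 13 of the 21 called-higher miRNAs and 54.5% in 9 of the 10 called-lower ones, against 47.8% over the 152. miR-5109, miR-6243, and miR-3960 were among those without a sequence. Across miRNAs, which are not independent replicates, GC content and centred ratio had a Pearson r of 0.07 and a Spearman rho of 0.03. Calls in both directions were made at high GC content. Of the 29 miRNAs with at least 60% GC, 5 were called higher and 4 lower. The numbers were 2 and 3 of the 44 from 50% to below 60%, and 3 and 2 of the 56 from 40% to below 50%. Below 40% they were 3 and 0 of 23.

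At 48 h 9 miRNAs were detected that were not in sham (0.722% of 1247), and 31 were detected in sham and not at 48 h (2.49%). All were dim, with signals of 3.02 to 12.1 for the gained and 1.99 to 15.9 for the lost, and they held 0.076% of the 48 h total and 0.323% of the sham total. Among the gained, miR-132-3p had 7.45 at 48 h, 4.36-fold above the bound used for sham, relative to the median miRNA. Its neighbor miR-212-3p, with the same seed, had 75.9 and 34.2, with a centred ratio of −0.93, just short of the 2-fold call. miR-182-5p and miR-96-5p of the miR-183 cluster had 5.40 and 6.31, and the passenger strand miR-21a-3p had 3.02. The other gained miRNAs were miR-296-5p, miR-669c-3p, miR-31-5p, miR-1249-3p, and miR-714. For 6 of the 9 the signal was at least 2-fold above the bound, relative to the median. The bound was the higher of the lowest detected signal of any miRNA and the probe sum on the other array. It is not the detection limit of that miRNA, since miR-96-5p was undetected in sham at a probe sum of 5.45. These folds are therefore not strict lower limits.

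The lost miRNA with the highest sham signal was miR-1231-5p, at 15.9, 4.24-fold above its 48 h bound relative to the median miRNA. It was followed by miR-1894-3p at 14.3, miR-320-3p at 11.5, miR-1306-3p at 11.0, miR-6412 at 9.96, miR-874-3p at 9.95, miR-697 at 9.75, and miR-146a-5p. In 8 of the 31 the sham signal was at least 2-fold above the bound relative to the median, again not a strict limit. At 48 h miR-1306-3p was undetected at a probe sum of 7.90. For some, such as miR-1940 at 3.96 in sham, the probe sum at 48 h was higher (7.02). The 48 h array needed a higher signal for detection, with a median probe error of 1.63 against 1.20 in sham.

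Both arms of a hairpin were detected on both arrays for 12 hairpins, and they differed by over 2 scanner errors in 2. For miR-125a the 5p arm had a centred ratio of 0.54 and the 3p arm −0.61, and for miR-30b they had 0.17 and −0.99. Both 3p arms had fewer detected probes at 48 h, and with the shared probes they stood at 0.14 and −0.17.

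The other arrays of the series place the 48 h values in time. All of their ratios share the sham array, so values are given side by side only. The median log2 ratios that were subtracted were 0.18, 0.62, 1.11, and −0.22 at 6, 12, 24, and 48 h. The software multiplied signals by an effective feature size of 0.774 at 12 h and 0.776 at 24 h and of 0.6 on the other arrays. miR-21a-5p had centred ratios of 0.74, 1.64, 2.14, and 2.78 at 6, 12, 24, and 48 h. miR-18a-5p had 0.02, −0.27, 0.96, and 1.83, and miR-199a-5p had −0.04, 0.22, 0.29, and 1.11. The centred ratios of these 3 were highest at 48 h, whereas their unscaled signals were highest at 24 h, at 7885 against 4898 for miR-21a-5p, 26.6 against 19.4 for miR-18a-5p, and 27.5 against 19.3 for miR-199a-5p. Of the other miRNAs called higher at 48 h, miR-3096b-3p and miR-1949 also had their highest centred ratio at 48 h. All the rest had a higher centred ratio at an earlier time point, so their gains were not particular to 48 h. miR-188-5p had 2.22, 2.48, 1.78, and 1.70. At 12 h miR-494-3p had 2.45 (2.19 at 48 h), miR-5109 had 1.94 (1.66), and miR-3960 had 2.93 (1.45). miR-1187 had 3.71 at 12 h (1.94 at 48 h), and miR-466i-5p had 2.84 (1.18). miR-210-3p had −0.34 at 6 h, −1.995 at both 12 and 24 h, and −1.52 at 48 h. miR-378b had −0.09, −0.46, −0.74, and −1.17 and was lowest at 48 h.

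**Figure D5:**
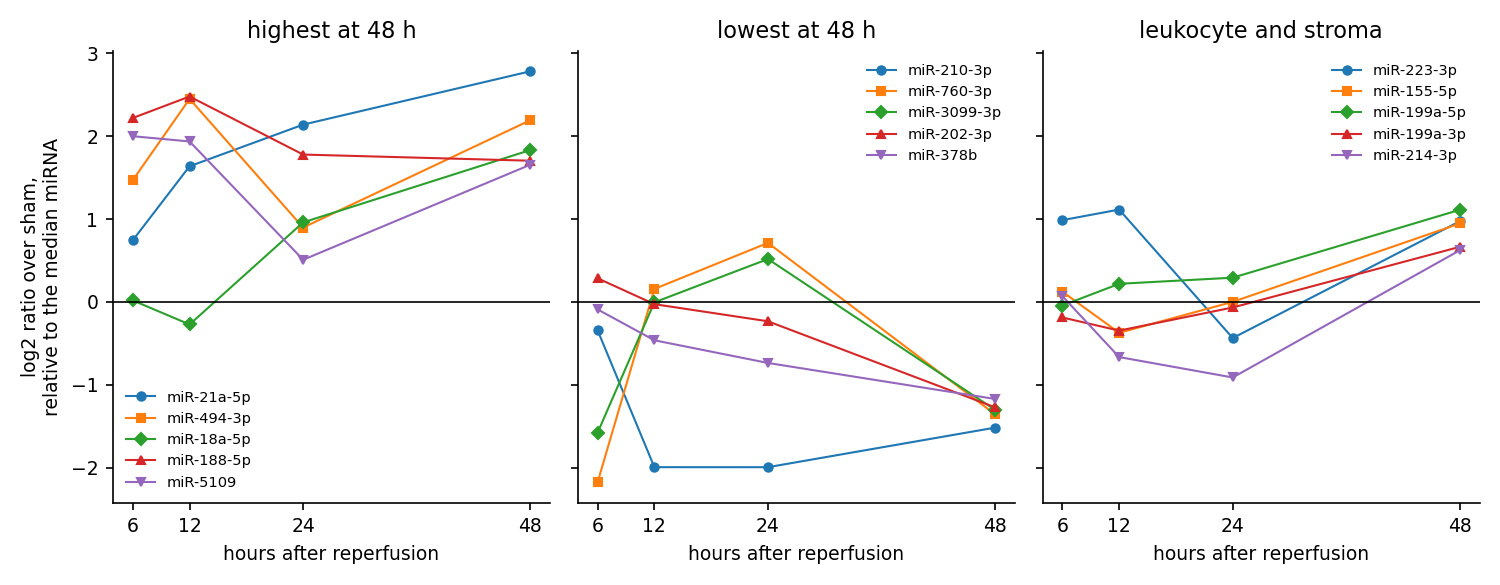
Centred log2 ratio over sham (y axis) against hours after reperfusion (x axis) for miRNAs high at 48 h, low at 48 h, and of leukocytes or stroma, 1 array per point and no error drawn. miR-21a-5p reaches 2.78 at 48 h (its unscaled signal was highest at 24 h). miR-760-3p and miR-3099-3p lie above 0 at 24 h and below −1 at 48 h, and lower still at 6 h (−2.18 and −1.58). All points share the sham array. After spike-in scaling the leukocyte and stromal miRNAs lie below 0 at 48 h.

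Of the 6 miRNAs that the study followed by qRT-PCR, the arrays gave ratios for 3 at 48 h, since miR-18a-5p, miR-214-3p, and miR-210-3p were detected on both arrays. miR-182-5p was detected at 48 h and not in sham, and also at 24 h, where its signal was 8.83 against 5.40 at 48 h, and miR-34b-3p and miR-134-5p were detected on neither array.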

How the data were processed

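The authors extracted total RNA from kidney with Trizol, labeled 0.1 µg with Cy3 (the labels name a Low Input Quick Amp kit), and hybridized it to the Agilent mouse miRNA array (Release 19.0). The authors deposited the intensity values written by Agilent Feature Extraction 10.7.1.1, per the file headers background-subtracted and detrended within an array, with an undetected miRNA at 0.1, and not normalized between arrays. A deposited table of log2 values, whose scale and centring are not given in the sources used here, served as an alternative only.

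Signals of a miRNA's own probes above 3 times their error were summed, because the software's total gene signal can hold signal of other miRNAs. Scanner errors were added as squares. Log2 ratios of 48 h over sham were taken unscaled, centred on the median of miRNAs detected on both arrays, and scaled by 4 spike-ins. With 1 array per group there was no test, no p-value, and no interval between animals, so that precision is limited by the number of arrays. The named miRNAs were the 12 highest and 12 lowest centred ratios beyond 2 scanner errors, the 5 highest signals per array, the 5 largest increases and decreases, the 8 brightest gained and lost detections, and listed families and cell type groups. Members and lists were chosen with earlier results of these data known. The UGUGUG search, the miR-378 and miR-466 lists, and the same-probe settings were added after the data were seen.

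The alternatives were other scalings, other summaries, normexp with an offset of 50, stricter detection at 5 times the error, leaving out dim or abundant miRNAs, and the authors' processed table. The computation was tested on simulated data. Sequences and positions are from RefSeq tables (GRCm38.p6), matched by name for 152 of 188 miRNAs, and the array header names build mm9, whose coordinates were not used. The scripts ran on limma 3.58.1 in R 4.3.3 and, in Python 3.11.15, on pandas 2.3.3, numpy 2.4.6, and matplotlib 3.10.9.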

Additional observations from a re-analysis of the deposited data

Results flagged for a closer look

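At 24 and 48 h 3 miRNAs stood on opposite sides of the median miRNA, each beyond 2 scanner errors, and the difference was not tested because each time point had 1 array and both share the sham array. miR-760-3p had a centred ratio of 0.71 at 24 h and −1.36 at 48 h, with signals of 34.8, 123, and 11.6 in sham, at 24 h, and at 48 h. miR-3099-3p had 0.52 and −1.30, with signals of 43.0, 133, and 15.0. miR-1906 had 0.54 and −1.53, with signals of 19.7, 61.4, and 5.82, and it had 1 detected probe fewer at 48 h than in sham. The low values were not particular to 48 h. At 6 h the centred ratio was −2.18 for miR-760-3p and −1.58 for miR-3099-3p, lower than at 48 h, and 0.10 for miR-1906.

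Of the 5 positive controls outside the scaling set, 3 were brighter on the 48 h array by over 2 scanner errors. The unscaled log2 ratio was 0.88 for hur_1, 0.32 for hur_4, and 0.28 for mr_1, all below the 1.04 of the spike-ins. It was 0.19 ± 0.10 for hur_2, the brightest control, and 0.03 ± 0.13 for hur_6.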

How the results depend on the processing

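No paired analysis was possible because neither group had a second array. The log2 ratio of the total signal was −0.83 with spike-in scaling and −0.18 without the 10 most abundant miRNAs of each array, both reversed from 0.21. It was 0.43 when centred and 0.34 with the 75th percentile. Of the abundant miRNAs left out, miR-21a-5p and miR-6243 were among the 10 most abundant at 48 h only. miR-30a-5p and miR-22-3p were among them in sham only. The median log2 ratio was −1.26 with spike-in scaling and 0 with quantile normalization. The count of miRNAs at least 2-fold higher, 21, became 2 with spike-in scaling, 38 with the total gene signal, 9 with normexp, and 9 without dim miRNAs. The count at least 2-fold lower, 10, became 16 without scaling, 116 with spike-in scaling, 3 with normexp, 2 with detection at 5 times the error, 1 without dim miRNAs, 5 with only probes detected on both arrays, and 6 with all probes. The gained detections, 9, became 5 with detection at 5 times the error. Among named miRNAs, miR-199a-5p was −0.15 with spike-in scaling, and with the total gene signal the values were −3.93 for miR-1187, 3.25 for miR-181b-5p, 1.07 for miR-1906, 2.79 for miR-324-5p, 2.48 for miR-378a-5p, 0.37 for miR-378b, and −5.91 for miR-5115, all reversed. The total gene signal can hold the signal of other miRNAs by its construction, and other causes were not tested. Of 1103 alternative values of 96 named miRNAs, 1008 kept their sign. Signals near the detection level, which was 1.99 in sham and 2.77 at 48 h, limit the dim miRNAs, and 1 array per group leaves the spread between animals unmeasured.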
